A study of Mus musculus with 6 samples.

Results

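Interleukin receptor chains are described here across the lymph node cells of pregnant mice. The members are 7 named genes, Il7r, Il2rb, Il2rg, Il4ra, Il6ra, Il21r and Il10ra, out of 14125 genes in the deposited count matrix. They were picked by name, with earlier results of these data known, and all 7 were found. Each was followed over the 9 cell types and the 5 CD4 T cell subsets that the authors named, over both lymph nodes and over both genotypes.

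The study used 7 dams, of which mice 4, 7, 8 and 36 were Aire-DTR and mice 1, 6 and 97 were WT, all mated with BALB/c males and all treated with diphtheria toxin (DT) over the first 9 days of pregnancy. Aire-DTR mice carry the diphtheria toxin receptor in cells that express Aire, so the toxin was meant to remove those cells, while the WT dams carried no receptor and received the same toxin. Brachial (brLN) and uterine-draining (udLN) lymph nodes were taken at embryonic day 9.5 and read by droplet single-cell RNA sequencing. Cells of several mice and tissues shared a run: pool 1 held mice 8 and 6, pool 2 held mice 36 and 97, and pool LN held mice 4, 7 and 1, each pool split over 2 wells. Mouse 4 was labelled as having a resorbed pregnancy and the other Aire-DTR mice as having growth-restricted fetuses, so these states cannot be told apart from the genotype.

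The members are the ligand-binding or signalling chains of cytokine receptors on lymphocytes. They belong to the class that signals through JAK kinases and STAT factors after a ligand joins receptor chains. Il2rg encodes the common gamma chain, which the receptors for IL-2, IL-4, IL-7, IL-9, IL-15 and IL-21 share. Il2rb encodes the beta chain that joins it in the IL-2 and IL-15 receptors. Il7r gives the survival signal of naive T cells, Il4ra pairs with Il2rg or Il13ra1, Il21r serves help to B cells, Il6ra signals through Il6st (gp130), and Il10ra pairs with Il10rb. In lymph nodes, regulatory T cells are known for high Il2ra (CD25) and low Il7r, and NK cells and memory CD8 T cells for their use of IL-15.

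On GRCm38, Il7r lies at chr15:9505788-9530176 and Il2rb at chr15:78479256-78495271, both on the minus strand. Il2rg lies at chrX:101264378-101268255 (minus), Il6ra at chr3:89864059-89913196 (minus) and Il10ra at chr9:45253837-45269149 (minus). Il4ra, at chr7:125552120-125579474 (plus), and Il21r, at chr7:125603429-125633570 (plus), are neighbours with 23955 bases between them. Annotated genes overlap 4 members: Gm20489 with Il2rg on the same strand, Gm44876 with Il4ra, Gm42809 with Il6ra, and Gm20612 and Mir7086 with Il10ra. How reads were divided between them in counting is not given here.

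RefSeq promoter windows matched 5 of the 7 members. The 250 bases before the start are printed for 3 whose window ends at the annotated start and whose levels differ in how far they depend on the cell class. Capitals mark matches to GGAAG (ETS core), TGTGGT (RUNX), GTAAACA (FOXO) and TTCNNNGAA (STAT) on either strand, and the sequences read 5′ to 3′ along the gene's strand on GRCm38.p6.
Il2rg, chrX:101268256-101268505, minus strand: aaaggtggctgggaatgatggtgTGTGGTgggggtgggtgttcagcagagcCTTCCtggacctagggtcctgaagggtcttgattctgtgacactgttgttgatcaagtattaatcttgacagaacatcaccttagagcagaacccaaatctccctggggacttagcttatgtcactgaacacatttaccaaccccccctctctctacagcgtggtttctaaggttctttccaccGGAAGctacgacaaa
Il6ra, chr3:89913197-89913446, minus strand: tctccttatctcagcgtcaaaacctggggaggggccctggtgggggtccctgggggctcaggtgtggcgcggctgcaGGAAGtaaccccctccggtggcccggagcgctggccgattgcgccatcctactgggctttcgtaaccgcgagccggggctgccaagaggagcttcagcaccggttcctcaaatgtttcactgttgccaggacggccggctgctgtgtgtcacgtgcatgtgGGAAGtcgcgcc
Il21r, chr7:125603179-125603428, plus strand: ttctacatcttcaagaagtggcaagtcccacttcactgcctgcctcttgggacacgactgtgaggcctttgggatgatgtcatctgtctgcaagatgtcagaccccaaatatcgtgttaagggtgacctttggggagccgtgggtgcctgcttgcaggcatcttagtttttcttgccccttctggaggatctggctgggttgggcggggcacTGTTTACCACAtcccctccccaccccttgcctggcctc
The Il2rg window held 49.2% G and C and 3 CpG, with 2 GGAAG matches and 1 TGTGGT match. That of Il6ra held 65.2% G and C and 18 CpG, with 2 GGAAG matches, against a median of 52.4% G and C over all windows. In Il21r (55.6%, 4 CpG) the single FOXO and RUNX matches, both on the reverse strand, overlap by 2 bases. Of 32817 promoter windows of this length, 64.1% held GGAAG, 14.0% TGTGGT, 7.01% TTCNNNGAA and 3.16% GTAAACA. These matches describe the letters only.

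The matrix listed 2127 cells of pool LN well 1 a second time, with identical counts and labels, and each was kept once, which left 7300 of 9427 cells (22833288 UMIs, median 2910 per cell). A further 208 barcodes (2.93%) occurred in more than 1 well with different counts and were kept. The 14 samples of 1 mouse and 1 node held 48 to 1060 cells and 155098 to 3351478 UMIs. Most class labels matched their markers: Foxp3 stood at 456 CPM (UMIs of a gene for every 1000000 UMIs of the class) in CD4+ Treg, Cd79a at 4711 in B, Ncr1 at 881 in NK, Trdc at 567 in gdT and Cxcr5 at 209 in Tfh. Myeloid, with 73 cells, had Lyz2 at 3612 CPM and summed hemoglobin and other erythroid markers at 69482 CPM, and Early Act. CD4 had Cd8b1 at 425 CPM, so neither label describes its cells fully. Summed T cell markers (Cd3d, Cd3e and Cd3g) stood at 1119 CPM in NK and 1165 in Myeloid, against 3394 in naive CD4 T cells. Summed B cell markers stood at 242 CPM in NK and 503 in Myeloid, against 9022 in B. The sort was given as CD45+ CD3+ in the protocol and as CD45+ in the design, and 2267 cells were B cells. Erythroid markers summed to 0 to 16 CPM in naive CD4 T cells of pool LN and to 679 to 1409 CPM in those of pools 1 and 2. Aire itself gave 5 UMIs in 4808 Aire-DTR cells and 3 UMIs in 2492 WT cells, so these data do not check the deletion.

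Levels are given in CPM of the summed cells of a class, as mean ± SD over mice with at least 20 cells of that class. For classes with fewer such mice the cells of all mice were pooled, with an exact 95% Poisson interval that covers counting error only. The authors made the classes from these same cells, and Il7r, Il2rb and Il10ra are among the 1212 genes of their scaled table, so differences between classes are described without a test. In sums of a class, fewer cells with a chain and less RNA per cell cannot be told apart.

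Il7r, the IL-7 receptor chain, was high in naive and memory T cells and near the floor in B cells. It stood at 451 ± 98.5 CPM (SD, n = 7; lowest 352, median 436, highest 641) in naive CD4 T cells and at 378 ± 74.5 CPM (n = 7; 290 to 524) in naive CD8 T cells, and the CD4 value was the higher in 7 of 7 mice. Memory CD8 T cells had 487 ± 101 CPM (n = 6) and exceeded naive CD8 T cells in 6 of 6 mice. Memory CD4 T cells had 365 ± 115 CPM (n = 7), which did not stand apart from naive CD8 T cells (higher in 3 of 7 mice). CD4+ Treg stood at 263 ± 140 CPM (n = 6), below naive CD4 T cells in 6 of 6 mice with a ratio of 0.566. B cells had 25.2 ± 18.1 CPM (n = 7; 2.18 to 53.7).

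Within memory and regulatory CD4 T cells the subsets differed widely in Il7r. Th17 cells carried 925 and 857 CPM in the 2 mice with enough cells (mice 36 and 4), where Tfh cells of the same mice carried 67.6 and 223 CPM. Act. Treg had 349 ± 54.3 CPM (n = 5) and Resting Treg 189 ± 62.1 CPM (n = 5), and the activated cells were the higher in 4 of 4 mice that had both. Early Act. CD4 stood at 215 ± 65.4 CPM (n = 5), with no order against Resting Treg (higher in 2 of 5 mice). Pooled cells gave 407 CPM (326 to 503) in gdT, 205 CPM (149 to 275) in NK and 152 CPM (110 to 205) in Myeloid. The NK and Myeloid cells also carried T cell markers, whose part in these levels was not tested. One mouse, the Aire-DTR mouse 8, had the highest Il7r of all mice in each of the 5 T cell types, at 641, 524, 579, 544 and 648 CPM in naive CD4, naive CD8, memory CD4, CD4+ Treg and memory CD8 cells.

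Il2rb, the beta chain of the IL-2 and IL-15 receptors, ranged from 10.8 CPM in B to 1068 CPM in NK in pooled cells. The NK value had an interval of 934 to 1215 CPM, CD4+ Treg had 425 ± 121 CPM (n = 6) and memory CD8 T cells 367 ± 50.1 CPM (n = 6), and Treg exceeded memory CD8 in 5 of 6 mice. Memory CD4 T cells followed with 202 ± 23.0 CPM (n = 7), a value that varied little between mice (173 to 237). Naive CD8 T cells held 72.9 ± 14.3 CPM (n = 7) and naive CD4 T cells 19.1 ± 5.85 CPM (n = 7), and CD8 was above CD4 in 7 of 7 mice. Both lineages therefore had more Il2rb in memory cells, by a ratio of 5.31 in CD8 (6 of 6 mice) and 10.6 in CD4 (7 of 7 mice), while CD4+ Treg exceeded naive CD4 cells 22.7-fold (6 of 6 mice). B cells stood at 9.98 ± 5.61 CPM (n = 7). Among subsets, Resting Treg (432 ± 150 CPM, n = 5) and Act. Treg (385 ± 107 CPM, n = 5) did not differ in a shared direction, and Early Act. CD4 had 96.9 ± 29.5 CPM (n = 5). In the 4 mice with both Treg subsets, Act. Treg was the higher in 3, with means of 374.5 and 365.1 CPM. WT mouse 97, at 700 CPM, entered the Resting Treg mean only.

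Il2rg, the common gamma chain, was read in every class, from 319 to 1110 CPM in pooled cells. Naive CD4 T cells had 736 ± 22.8 CPM (n = 7; 704 to 775) and naive CD8 T cells 747 ± 33.6 CPM (n = 7; 696 to 805), with CD8 above CD4 in 4 of 7 mice. Memory CD4 T cells stood at 940 ± 119 CPM (n = 7) and exceeded naive CD4 cells in 7 of 7 mice, whereas memory CD8 T cells, at 621 ± 69.1 CPM (n = 6), were below naive CD8 cells in 6 of 6 mice. The memory difference thus had opposite directions in the 2 lineages, with ratios of 1.28 and 0.832. The memory CD4 class is a mix, with 12.5% to 37.9% Act. Treg and 10.5% to 47.4% Early Act. CD4 per mouse and node. Those subsets had 964 and 1110 CPM of Il2rg in pooled cells, and their part in the ratio was not tested. Memory CD4 ratios of the other chains are values of the same mix. Early Act. CD4 had the highest subset level, 1116 ± 204 CPM (n = 5), and Tfh pooled cells the lowest, 600.0 CPM (529 to 678). B cells held 614 ± 35 CPM (n = 7), and pooled Myeloid cells 319 CPM (256 to 391.7).

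**Figure D1:**
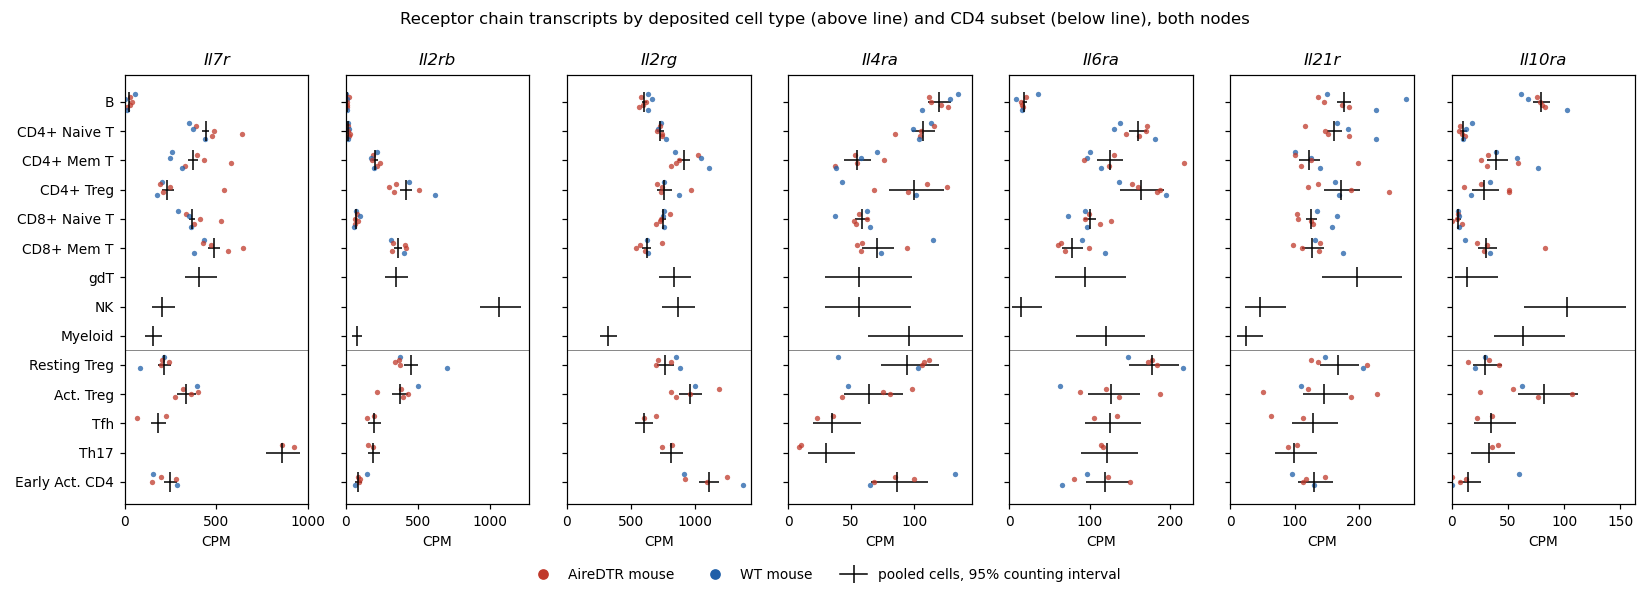
Level of each receptor chain (CPM, linear axis from 0, own scale per gene) in 9 deposited cell types and 5 CD4 subsets. Coloured points are mice with at least 20 cells of the class (both nodes summed), black bars are pooled cells with their 95% counting interval; Il2rb reaches 1068 in NK against 10.8 in pooled B cells, while Il2rg spans 319 to 1110 over all pooled classes.

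Il4ra, the IL-4 receptor chain, was highest in B cells: 120 ± 10.3 CPM (n = 7; 106 to 135). Naive CD4 T cells followed at 104 ± 10.1 CPM (n = 7; 84.9 to 116), below B cells in 6 of 7 mice, with overlapping counting intervals. Naive CD8 T cells had 55.6 ± 9.63 CPM (n = 7), so naive CD4 exceeded naive CD8 cells in 7 of 7 mice with a ratio of 1.87. Memory CD4 T cells stood at 55.2 ± 14.5 CPM (n = 7), below naive CD4 cells in 7 of 7 mice (ratio 0.531), and memory CD8 T cells at 75.7 ± 24.2 CPM (n = 6). The lowest pooled subsets were Tfh, with 34.9 CPM (19.5 to 57.5), and Th17, with 30.3 CPM (15.6 to 52.9). CD4+ Treg held 90.5 ± 30.2 CPM (n = 6).

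Il6ra, which binds IL-6, was highest on the CD4 side of the T cells and low in B and NK cells. CD4+ Treg had 169 ± 22.7 CPM (n = 6) and naive CD4 T cells 157 ± 19.3 CPM (n = 7), with no shared order (3 of 6 mice each way). Memory CD4 T cells held 125 ± 43.1 CPM (n = 7), naive CD8 99.7 ± 16.5 CPM (n = 7) and memory CD8 83.8 ± 23.1 CPM (n = 6). Naive CD4 exceeded naive CD8 cells in 7 of 7 mice (ratio 1.57). B cells had 18.3 ± 8.32 CPM (n = 7), and NK pooled cells 14.0 CPM (2.88 to 40.9, from 3 UMIs). Pooled Myeloid cells stood at 120 CPM, between pooled memory CD4 (125 CPM) and naive CD8 T cells (99.9 CPM). Activated Treg cells were below resting ones in 4 of 4 mice, with a ratio of 0.598.

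Il21r, the receptor through which follicular helper cells reach B cells, was read at like levels across B and T cells. B cells had 184 ± 49.3 CPM (n = 7; 136 to 272), CD4+ Treg 170 ± 44.4 CPM (n = 6) and naive CD4 T cells 168 ± 34.9 CPM (n = 7), and these neighbours had no shared order. Naive CD8 T cells stood at 131 ± 23.9 CPM (n = 7), below naive CD4 cells in 7 of 7 mice, memory CD8 at 132 ± 27.1 CPM (n = 6) and memory CD4 at 128 ± 33.8 CPM (n = 7). NK and Myeloid pooled cells were lower, at 46.6 CPM (22.4 to 85.7) and 24.8 CPM (9.96 to 51.1), and gdT stood at 197 CPM (142 to 266).

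Il10ra, the ligand-binding chain of the IL-10 receptor, was low in naive T cells. It stood at 10.8 ± 3.70 CPM (n = 7) in naive CD4 and 5.65 ± 2.92 CPM (n = 7; 0 to 9.66) in naive CD8 T cells. Memory CD4 cells held 46.1 ± 18.6 CPM (n = 7) and memory CD8 cells 35.4 ± 24.6 CPM (n = 6), above the naive cells of their lineage in 7 of 7 and 6 of 6 mice (ratios 4.26 and 6.36). B cells had 78.5 ± 13.1 CPM (n = 7; 61.5 to 103), 7.25 times the naive CD4 level and higher in 7 of 7 mice. Pooled NK cells had 103 CPM (64.3 to 155), and Act. Treg 65.3 ± 30.1 CPM (n = 5) against 27.9 ± 10.9 CPM (n = 5) in Resting Treg.

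Shares of cells with a UMI were compared at 1 depth. Cells were thinned to 1000 UMIs each, and shallower cells were left out. Of the thinned cells, 29.6% of naive CD4 T cells had an Il7r UMI (95% Wilson interval 27.5% to 31.9%) against 1.27% of B cells (0.879% to 1.83%). Unthinned shares were 55.7% and 3.09%, at median depths of 2903 and 2261 UMIs. Mature B cells should lack Il7r, so their share serves as the background. Il2rb was found in 59.3% of thinned NK cells (46.0% to 71.3%), in 30.7% of CD4+ Treg (25.9% to 36.0%), in 1.37% of naive CD4 T cells (0.914% to 2.05%) and in 0.453% of B cells (0.246% to 0.832%). Without thinning the NK and naive CD4 shares were 83.3% and 4.17%.

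**Figure D2:**
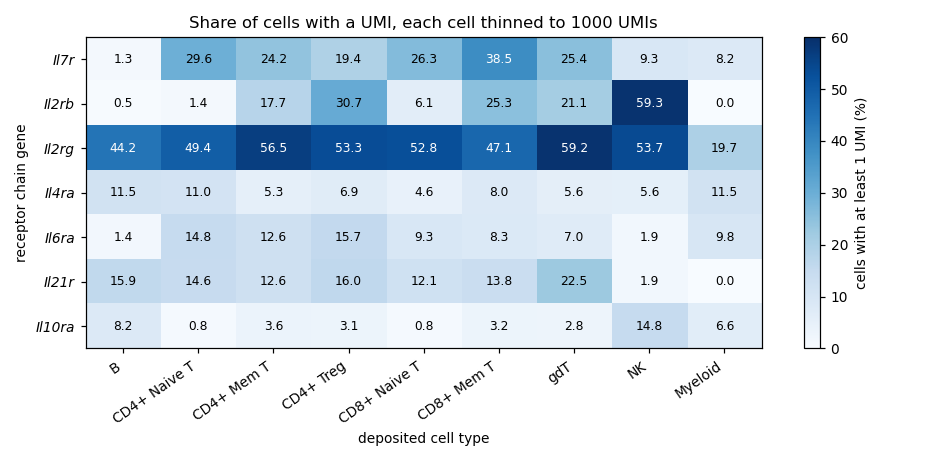
Share of cells (%) with at least 1 UMI of each chain in each of the 9 deposited cell types, after thinning to 1000 UMIs per cell. Shallower cells were left out. Darker cells are higher; Il2rb reaches 59.3% in NK against 0.453% in B, and Il10ra reaches 8.20% in B against 0.833% in naive CD4 T cells.

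Partner chains filled in the receptors. Il2ra, the CD25 chain, stood at 429 CPM in CD4+ Treg and 5.56 CPM in naive CD4 T cells of the same mice (77.3-fold, 6 of 6 mice), and Resting Treg (441 CPM pooled) and Act. Treg (312 CPM) both carried it. In Resting Treg this sat beside the lower Il7r level, and in Act. Treg beside the higher one. Il6st, which Il6ra needs to signal, had 12.6 CPM in B cells and 88.4 CPM in naive CD4 cells, lower in B cells in 7 of 7 mice, as Il6ra was. Th17 cells had 27.7 CPM of Il6st (pooled) where Tfh cells had 107 CPM, while their Il6ra stood at 121 and 126 CPM. Il10rb, the shared second chain of the IL-10 receptor, was higher in memory than in naive CD8 cells in 6 of 6 mice (101 and 53.0 CPM) and reached 172 CPM in pooled NK cells. Il15ra lay between 2.93 and 14.2 CPM in the 9 cell types. Ligand transcripts were sparse: Il4 gave 24 UMIs and Il21 22 UMIs in Tfh, Il10 gave 9 UMIs in Act. Treg, and Il7 gave 2 UMIs, both in Myeloid.

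Other genes followed the members over the 9 cell types, by Pearson's r of log2(CPM + 1) in pooled cells, among genes with at least 100 UMIs. The points share libraries and depth, so r is descriptive. Il7r was most like Thy1 (0.984), Cd3d (0.962) and Tcf7 (0.961), which are T cell genes. Il6ra was most like Rgs10 (0.957), Gabrr2 (0.953) and Bcl11b (0.952), and Il10ra like Plxnc1 (0.980), Unc119 (0.939) and Serinc3 (0.925). Il2rb was most like H2afz (0.967), Spin2c (0.936) and Asap2 (0.930), Il2rg like Dhx32 (0.983), Rspry1 (0.980) and 3110040N11Rik (0.978), Il21r like Setd5 (0.994), Wbp11 (0.983) and Fiz1 (0.983), and Il4ra like Poc1b (0.887), Zfp101 (0.876) and Nipsnap3b (0.858). Among members, the highest r was that of Il2rg and Il21r (0.614) beside that of Il7r and Il6ra (0.613), and the lowest that of Il2rb and Il4ra (-0.661).

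The genotype comparison asked whether the chains differed between Aire-DTR and WT dams. UMI counts were summed per mouse, node and class and fitted with edgeR's quasi-likelihood test with pool as a term, and p-values were adjusted over all genes of a fit by Benjamini-Hochberg, with 0.05 as the threshold. Differences are log2 values, Aire-DTR minus WT, with their SE. A mouse alone in its pool in a fit does not inform the difference, as the pool term takes up its value. That was Aire-DTR mouse 36 in naive T cells of udLN and Aire-DTR mouse 8 in memory CD4 T cells of brLN. No member passed the threshold in any class of either node: 0 of 42 member values in brLN and 0 of 17 in udLN. The unadjusted p was below 0.05 for 12 of the 42 and for 3 of the 17. By DESeq2, 0 members were called as well, with 1 of 42 and 0 of 17 unadjusted p-values below 0.05. The share of all genes below that p is not given beside these counts, so they are not read as a result about the members. The values also share mice, and CD4+ Treg and Resting Treg share cells.

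Few genes of any kind passed in these fits. In brLN the share of all genes tested that passed was 0.058% in B, 0.0184% in naive CD4, 0.0297% in naive CD8, 0.0924% in memory CD4, 0.115% in memory CD8, 0.411% in CD4+ Treg and 0.453% in Resting Treg. In udLN it was 0.0% in B, 0.0828% in naive CD4 and 0.0756% in naive CD8 T cells. A count of 0 among 5 to 7 members tested per fit is near that background. In B cells of udLN, where no gene passed, 147 genes had an unadjusted p below 0.05 by edgeR, and DESeq2 called 0 with 34 such genes. Filters on low counts left out Il10ra in every T cell fit but that of memory CD4 cells in brLN, Il2rb in B cells of both nodes and in naive CD4 cells of brLN, and Il6ra in B cells of udLN.

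Il7r in naive CD4 T cells of brLN stood at 373, 498, 614 and 471 CPM in Aire-DTR mice 4, 7, 8 and 36 and at 332, 374 and 435 CPM in WT mice 1, 6 and 97. Mouse 8 was the highest and WT mouse 1 the lowest, and the groups overlapped. The fitted difference was 0.37 (SE 0.11, unadjusted p = 0.00194), with an edgeR adjusted p of 0.814, and it stayed between 0.27 and 0.53 with any 1 mouse left out. Each pool showed the same direction: 614 against 374 CPM in pool 1, 471 against 435 in pool 2, and 373 and 498 against 332 in pool LN. In udLN the Aire-DTR mice had 399, 447, 672 and 495 CPM and WT mice 1 and 6 had 391.6 and 378. Those groups did not overlap, with a difference of 0.34 (SE 0.15, edgeR adjusted p = 0.883) that was 0.12 without mouse 8 and 0.86 without mouse 1. WT mouse 97 had 4 of these cells in udLN, so Aire-DTR mouse 36 was alone in pool 2. The fitted difference therefore came from pool LN and pool 1 only.

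Naive CD8 T cells gave a like Il7r value in brLN. The Aire-DTR mice 4, 7, 8 and 36 had 303, 456, 531 and 369 CPM and the WT mice 1, 6 and 97 had 291, 276 and 356. The groups overlapped, and the difference was 0.36 (SE 0.11, unadjusted p = 0.00124, edgeR adjusted p = 0.556). It was 0.22 without mouse 7 and 0.56 without mouse 36. In udLN it was 0.19 (SE 0.15), and 0.03 without mouse 1. There WT mouse 6 had 524 CPM, above mouse 8 with 517 CPM, from 51 UMIs in 23 cells. WT mouse 97 had 14 naive CD8 T cells in udLN, so Aire-DTR mouse 36 was alone in pool 2 there too.

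Memory T cells had the larger Il7r difference in the CD4 lineage. In brLN the Aire-DTR mice 4, 7, 8 and 36 had 469, 458, 443 and 386 CPM in memory CD4 T cells, and WT mice 1 and 97 had 237 and 310. The groups did not overlap, and the difference was 0.63 (SE 0.22, unadjusted p = 0.00653, edgeR adjusted p = 0.825). It was 0.31 without mouse 1 and 1.00 without mouse 97, each with a lone WT mouse assumed to vary like the rest. WT mouse 6 had 14 memory CD4 T cells in brLN, so Aire-DTR mouse 8 was alone in pool 1 and did not inform the difference. Th17 cells, the subset with the highest Il7r, made up 18.8% and 23.7% of these cells in the WT mice and 19.7% to 24.6% in the Aire-DTR mice, and their part in the difference was not tested. In memory CD8 T cells the values were 439, 511 and 555 CPM against 450 and 364 CPM, a difference of 0.38 (SE 0.16, edgeR adjusted p = 0.998) that was 0.13 without mouse 36 and 0.66 without mouse 1.

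CD4+ Treg of brLN gave an Il7r value with a wide error. It stood at 176, 273 and 166 CPM in Aire-DTR mice 4, 7 and 36 and at 246 and 187 CPM in WT mice 1 and 97, a difference of -0.08 (SE 0.34). Resting Treg gave 0.28 (SE 0.39). Aire-DTR mouse 8 had too few cells of either class in brLN to enter these fits. B cells of brLN had 36.2, 40.2, 0 and 3.24 CPM in Aire-DTR mice 4, 7, 8 and 36 and 64.1, 3.64 and 13.3 CPM in WT mice 1, 6 and 97, a fitted difference of -0.98 (SE 0.35, edgeR adjusted p = 1.00) that was -2.09 without mouse 1 and -0.12 with both nodes summed. Summed T cell markers in the same B cells were 587, 223, 63.7 and 213 CPM and 551, 102 and 222 CPM in that order. Their part in the difference was not tested. In udLN the B cell difference had the other sign, 0.70 (SE 0.76).

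**Figure D3:**
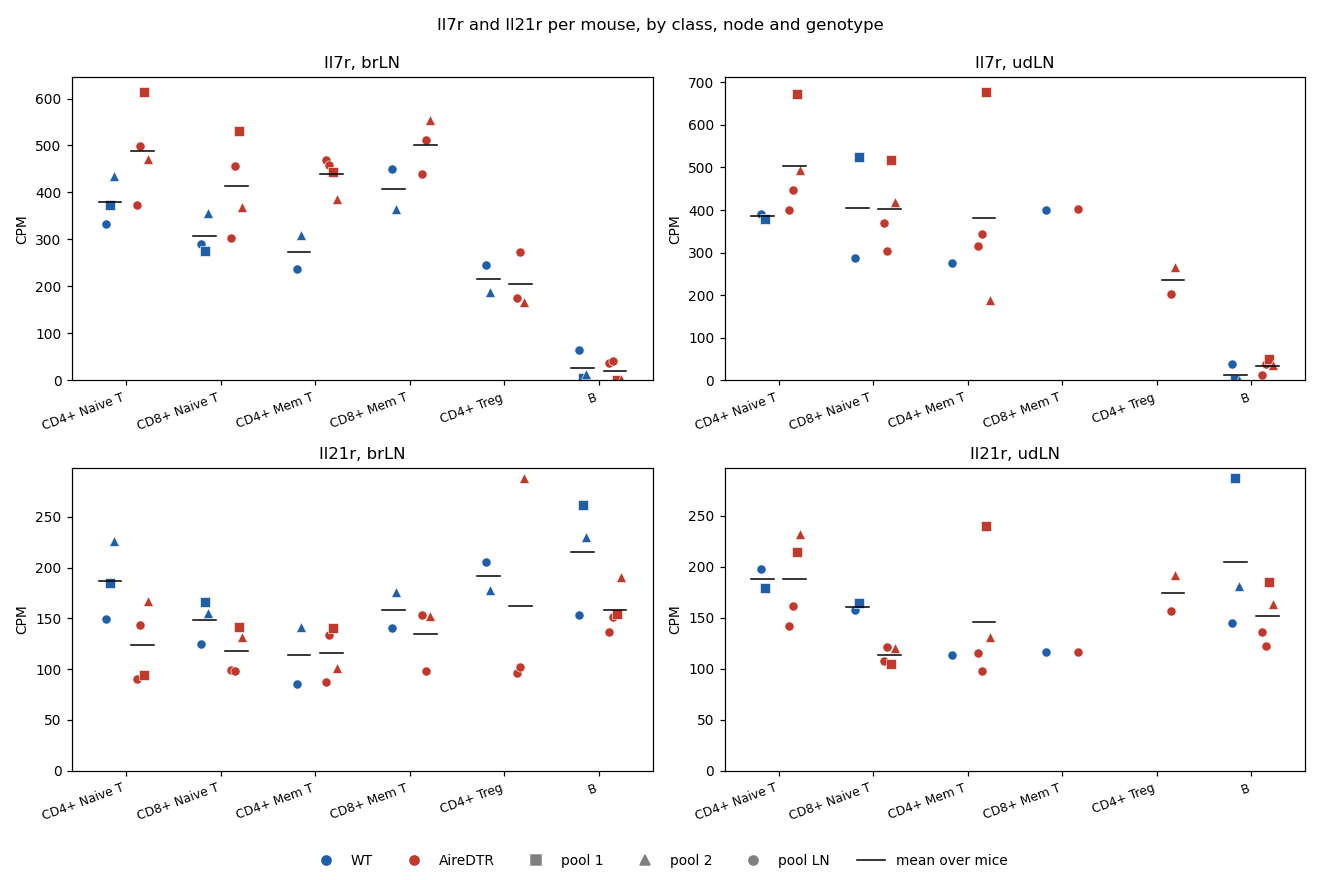
Level (CPM, axis from 0) of Il7r and Il21r per mouse in 6 cell types of brLN and udLN. Colour is the genotype, marker shape the pool and the black line the mean over mice; in naive CD4 T cells of brLN, Il7r ranges from 373 to 614 in Aire-DTR and from 332 to 435 in WT mice, and Il21r from 90.2 to 167 and from 149 to 226.

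Il21r values in brLN leaned the other way, towards lower levels in Aire-DTR mice. Naive CD4 T cells of brLN had 90.2, 143, 94.5 and 167 CPM in Aire-DTR mice 4, 7, 8 and 36 and 149, 185 and 226 CPM in WT mice 1, 6 and 97. The groups overlapped through mouse 36, and the difference was -0.43 (SE 0.16, unadjusted p = 0.00998, edgeR adjusted p = 0.941). In naive CD4 T cells of udLN the Aire-DTR mice had 142, 162, 215 and 232 CPM and WT mice 1 and 6 had 198 and 179 CPM. The mean over mice was 188 CPM in each genotype. The fitted Il21r difference there was -0.20 (SE 0.23), and 0.29 without mouse 1. Mouse 36, with 232 CPM, was alone in its pool and did not inform that fit. Naive CD8 T cells gave -0.29 (SE 0.14) in brLN and -0.50 (SE 0.23, edgeR adjusted p = 0.851) in udLN. In the latter, 108, 121, 105 and 120.2 CPM in Aire-DTR mice stood below 157 and 164 CPM in WT mice 1 and 6, with no overlap. The fitted value there was not informed by mouse 36, alone in its pool. B cells gave -0.33 in both nodes (SE 0.15 in brLN and 0.20 in udLN). With 1 mouse left out the B cell value ran from -0.48 (mouse 1) to -0.20 (mouse 6) in brLN and from -0.43 (mouse 1) to -0.15 (mouse 6) in udLN. In brLN every class had a fitted Il21r difference below 0, from -0.43 to -0.09, and none passed the threshold.

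Il2rg differed little between genotypes. Over the 7 classes of brLN its fitted differences ran from -0.20 to 0.01. In B cells of brLN the Aire-DTR mice 4, 7, 8 and 36 had 610.0, 611, 546 and 579 CPM and the WT mice 1, 6 and 97 had 647, 713 and 637 CPM. These did not overlap, and the difference of -0.19 (SE 0.09, unadjusted p = 0.0483) had an edgeR adjusted p of 1.00. It was -0.28 without mouse 1 and -0.12 without mouse 6. In udLN the B cell difference of Il2rg was -0.04 (SE 0.13).

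Il2rb and Il4ra gave values with wide errors in the rarer classes. In CD4+ Treg of brLN, Il2rb stood at 368, 300.5 and 199 CPM in Aire-DTR mice 4, 7 and 36 and at 287 and 626 CPM in WT mice 1 and 97. The difference was -0.65 (SE 0.29, edgeR adjusted p = 1.00), and it ran from -1.62 without mouse 1 to 0.23 without mouse 97, so it rested on WT mouse 97. Il4ra in memory CD8 T cells of brLN was 81.6, 52.3 and 56.1 CPM against 141 and 66.7 CPM, a difference of -0.76 (SE 0.35) that was -0.19 without mouse 1. In naive CD4 T cells of udLN, Il4ra was 134, 109, 87.3 and 98.9 CPM in Aire-DTR mice and 71.9 and 79.6 CPM in WT mice 1 and 6, a difference of 0.68 (SE 0.30, edgeR adjusted p = 0.883) without overlap. It was 0.16 without mouse 1 and -0.04 with both nodes summed. The udLN fit was not informed by Aire-DTR mouse 36, alone in its pool there.

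Il10ra and Il6ra complete the members. Il10ra in memory CD4 T cells of brLN was 33.9, 26.7, 58.4 and 26.1 CPM in Aire-DTR mice 4, 7, 8 and 36 and 66.5 and 77.4 CPM in WT mice 1 and 97. The difference was -1.32 (SE 0.61, unadjusted p = 0.0376, edgeR adjusted p = 1.00), from sums in which 1 UMI weighs several CPM. With both nodes summed it was -0.62 (SE 0.39). The brLN fit was not informed by Aire-DTR mouse 8, alone in its pool there. In B cells, where it was best read, Il10ra gave 0.04 (SE 0.20) in brLN and 0.05 (SE 0.27) in udLN. Il6ra gave -0.52 to 0.15 over the classes of brLN, and 0.33 (SE 0.25) and 0.52 (SE 0.27) in naive CD4 and naive CD8 T cells of udLN.

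**Figure D4:**
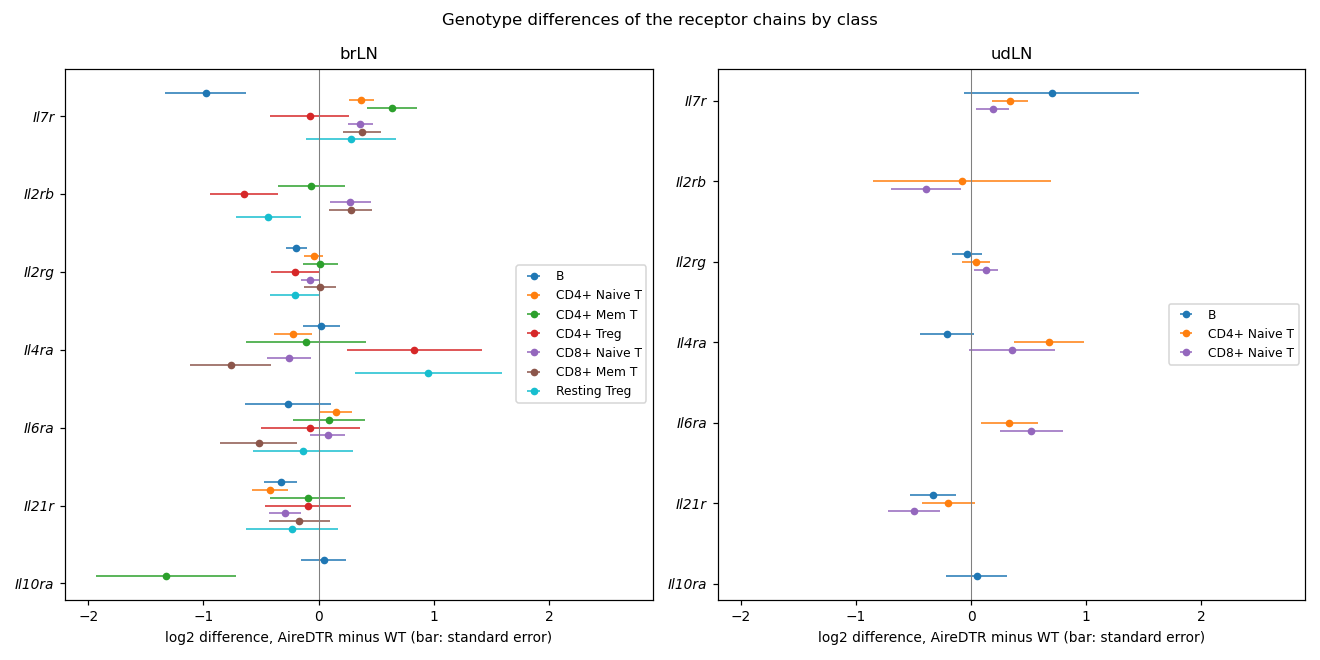
Fitted log2 difference (Aire-DTR minus WT, bars are 1 SE) of each member in each class fitted in brLN (left) and udLN (right). Il7r lies right of 0 in naive CD4 (0.37), naive CD8 (0.36) and memory CD4 (0.63) cells of brLN, Il21r lies left of 0 in every class of brLN, and no value passed the threshold.

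The test of whether the genotype effect differed between the nodes called 0 of 17 member values. Of all genes tested, 0.0195% passed in B, 0.0893% in naive CD4 and 0.0387% in naive CD8 T cells. Il4ra in naive CD4 T cells had the lowest of these p-values, with a difference of 0.94 (SE 0.35, edgeR unadjusted p = 0.00977, edgeR adjusted p = 0.823). There Il4ra was 71.9 and 79.6 CPM in udLN and 133 and 108 CPM in brLN of WT mice 1 and 6. For Il7r the same term was -0.12 (SE 0.18) in naive CD4 and -0.31 (SE 0.21) in naive CD8 T cells. The opposite signs of Il7r in B cells of the nodes gave 1.59 (SE 1.11).

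The node comparison set udLN against brLN of the same mice, with mouse as a block. Again 0 of 21 member values passed. The background was 0.0479% of genes in B, 0.66% in memory CD4, 0.119% in naive CD4 and 0.124% in naive CD8 T cells. DESeq2 also called 0 members, and each tool gave 2 unadjusted p-values below 0.05. The share of all genes below that p is not given here. The lowest edgeR p-values belonged to Il2rg in memory CD4 and Il21r in naive CD4 T cells.

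Il2rg in memory CD4 T cells was 1118, 936, 1039 and 893 CPM in brLN of Aire-DTR mice 4, 7, 8 and 36 and 933, 687, 712 and 625 CPM in their udLN. WT mouse 1 had 817 and 879 CPM. The level was lower in udLN in 4 of 5 mice, with a difference of -0.36 (SE 0.11, unadjusted p = 0.00301, edgeR adjusted p = 0.179). The mix of subsets moved too: Early Act. CD4, the subset highest in Il2rg, made up 33.3%, 46.5%, 30.4%, 32.6% and 46.9% of memory CD4 cells in brLN of mice 4, 7, 8, 36 and 1 and 21.9%, 29.6%, 27.6%, 10.5% and 24.2% in udLN, and its part in the result was not tested.

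Il21r in naive CD4 T cells was 90.2, 143, 94.5 and 167 CPM in brLN of Aire-DTR mice 4, 7, 8 and 36 and 142, 162, 215 and 232 CPM in their udLN. WT mice 1 and 6 had 149 and 185 CPM in brLN and 198 and 179 CPM in udLN. The level was higher in udLN in 5 of 6 mice, with a difference of 0.43 (SE 0.13, unadjusted p = 0.00172, edgeR adjusted p = 0.362). Il7r, by contrast, gave 0.05 (SE 0.08) in naive CD4 and 0.04 (SE 0.09) in naive CD8 T cells between the nodes.

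Genes around the receptors were read from 4 further lists. These held 30 other interleukin receptor chains of the matrix, 11 JAK and STAT genes, 13 targets and feedback genes and 8 genes known to control Il7r. No gene of these lists passed in any genotype fit of brLN or udLN, or in the test of whether the genotype effect differed between the nodes. In naive CD4 T cells of brLN, 5 of the other chains were tested (median 0.14), 9 JAK and STAT genes (median -0.09), 9 targets (median 0.01) and 6 Il7r control genes (median 0.00), beside a median of 0.00 over all genes tested. Il2ra in CD4+ Treg of brLN was 352, 321 and 299 CPM in Aire-DTR mice 4, 7 and 36 and 506 and 542 CPM in WT mice 1 and 97, a difference of -0.69 (SE 0.27, unadjusted p = 0.0110, edgeR adjusted p = 0.822) without overlap. With both nodes summed it was -0.74 (SE 0.20, edgeR adjusted p = 0.0637). There Aire-DTR mouse 8, which had too few cells in brLN, stood at 595 CPM, above WT mice 1 and 97 with 487 and 566. It was the only mouse of pool 1 in that fit. Resting Treg gave -0.36 (SE 0.28) in brLN and -0.42 (SE 0.22) with both nodes summed.

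Between the nodes 2 list genes passed. Socs3, a feedback inhibitor of cytokine receptors that use gp130, rose in naive CD4 T cells of udLN, as 1 of 9 targets tested. In brLN and udLN it stood at 37.8 and 142 CPM in mouse 4, 66.6 and 96.3 in mouse 7, 106 and 155 in mouse 8, 55.1 and 160 in mouse 36, 37.3 and 101 in WT mouse 1, and 122 and 109 in WT mouse 6. It was higher in udLN in 5 of 6 mice, with a difference of 1.06 (SE 0.19, edgeR adjusted p = 0.00227). The adjusted p was 0.144 by DESeq2, 0.0909 without mouse 36 and 0.0524 without mouse 4. Klf2, a transcription factor of naive T cells listed for its link to Il7r, rose in naive CD8 T cells of udLN, as 1 of 5 control genes tested. It went from 750 to 1010 CPM in WT mouse 1, 844 to 1048 in WT mouse 6, 827 to 945 in mouse 4, 884 to 989 in mouse 7, 848 to 1191 in mouse 8 and 945 to 1105 in mouse 36. All 6 mice were higher in udLN, with a difference of 0.29 (SE 0.05, edgeR adjusted p = 0.000928), while DESeq2 gave an adjusted p of 0.0836. Il7r in the same naive CD8 T cells showed no like difference (0.04).

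**Figure D5:**
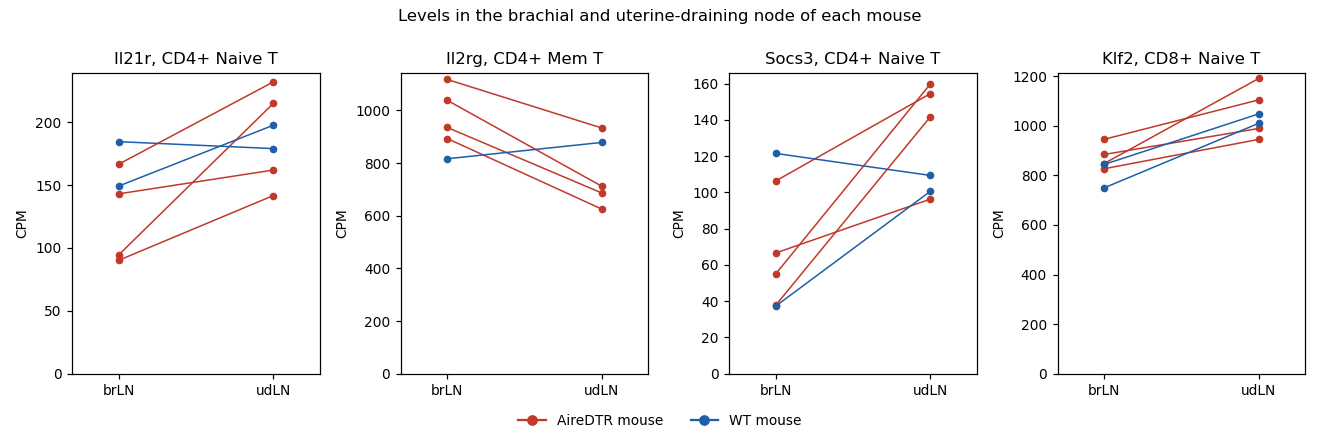
Level (CPM, axis from 0) in brLN and udLN of each mouse, joined by a line and coloured by genotype, for Il21r and Socs3 in naive CD4 T cells, Il2rg in memory CD4 T cells and Klf2 in naive CD8 T cells. Il21r and Socs3 are higher in udLN in 5 of 6 mice, Klf2 in 6 of 6 and Il2rg is lower in 4 of 5; Socs3 and Klf2 passed the edgeR threshold and the members did not.

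Too few mice had 20 cells per node to fit NK, gdT, Myeloid, Tfh, Th17, Act. Treg or Early Act. CD4 cells by genotype, so the classes with the highest Il2rb (NK) and Il7r (Th17) carry no genotype value.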

How the data were processed

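UMI counts per cell and gene were deposited by the authors for the whole series, with each cell's mouse, node, genotype and cell type. Tools named per the submitters' processing notes were Seurat, Scanpy 1.7.0, bustools 0.40.0 and kallisto 0.46.1, on GRCm38. The role of each tool, the cell filters, the demultiplexing and any doublet removal were not given in the sources used here, and no doublet caller was run. Kits were labelled as 3′ V3 and hashtags as totalseq-C. The authors' scaled values were not used.

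Members and gene lists were chosen with earlier results of these data known. Cells listed more than once were kept once. UMIs were summed per mouse, node and class (at least 20 cells), then passed through filterByExpr and TMM scaling in edgeR 4.0.16 (R 4.3.3), whose quasi-likelihood test was the main one; DESeq2 1.42.0 was an alternative. The replicate is the mouse. A genotype fit needed at least 2 mice per genotype. Its p-values rest on the spread between these mice, with each gene's variance drawn towards the trend over all genes of the fit. A mouse alone in its pool adds nothing to that spread. Pool was a term because its mice were loaded together. All members were named in each comparison, with up to 4 list genes past the threshold, the partner chains Il2ra, Il15ra, Il6st and Il10rb, and the 3 genes most like each member. The test was checked on simulated data. Replicate numbers in the labels are wells, which split 1 pool's cells and do not pair mice.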

Additional observations from a re-analysis of the deposited data

Results flagged for a closer look

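In 2 of 49 groups of 4 mice (4.08%), 1 mouse lay farther from the rest than Dixon's 95% critical value allows, and chance gives about 1 in 20 such groups. Il2rg in naive CD8 T cells of udLN was 579 CPM in Aire-DTR mouse 36, where the other Aire-DTR mice had 786 to 824 CPM, from 130 UMIs in 59 cells. Il6ra in naive CD4 T cells of brLN was 154 CPM in Aire-DTR mouse 8, where the others had 168 to 170 CPM, from 26 UMIs in 52 cells.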

How the results depend on the processing

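Over 1182 values of the members under alternative settings, 0 passed the threshold, and the smallest adjusted p was 0.0634 (Il2rg between nodes in memory CD4 T cells with at least 10 cells per sum). With the well number as a replicate block in 3 classes of brLN, 0 members and 1 gene passed. The sign differed in 79 of 1094 values, 55 of them with a mouse left out. In CD4+ Treg of brLN, leaving out 1 mouse gave Il2rb from -1.62 to 0.23 and Il7r from -0.315 to 0.0464, and Il7r was 0.0364 without the pool term and 0.16 with both nodes summed. Il7r in Resting Treg was -0.0302 with the cells as deposited, repeats included, a setting chosen after seeing the data. Il7r in B cells of udLN ran from -0.27 to 0.61 and was -0.12 with both nodes summed, where Il4ra in naive CD4 T cells of udLN was -0.0365. Thinning to 1500 UMIs moved the naive CD4 shares to 41.0% for Il7r and 2.53% for Il2rb. No level moved beyond its spread (0 of 126).

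Genes of all kinds past the threshold were 25 in 7 classes of brLN, and in the same classes 2 by DESeq2's test, 62 without the low-count filter, 7 without the pool term and 19 to 37 with 1 of mice 1, 4, 7, 36 and 97 left out. Without mice 6 and 8 fewer classes could be fitted, with 13 genes over 3 classes and 15 over 4. In 3 classes of udLN 6 genes passed, and in the same classes 1 by DESeq2, 47 without the filter, 4 without the pool term, 9 as deposited, 9 with stricter cells and 5 to 31 without mouse 1, 4, 6 or 7. Over 4 classes 5 passed without mouse 36 and 30 without mouse 8, and 4 in B cells alone without mouse 97. Between nodes 24 passed in 4 classes, and in the same classes 4 by DESeq2, 86 without the filter and 18 to 25 without mouse 1, 4, 7, 8 or 36. As deposited, 15 passed over 6 classes. Without mouse 6 it was 18 over 3 classes, and 1 in B cells alone without mouse 97, where 2 passed with all mice. The causes of differences within the same classes were not tested.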
